A study of Mus musculus with 3 samples.

Results

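The *B2m* gene, the 2 classical MHC class I heavy chain genes *H2-K1* and *H2-D1* and 6 non-classical heavy chain genes (*H2-Q4*, *H2-Q6*, *H2-Q7*, *H2-T22*, *H2-T23* and *H2-M3*) were followed through spatial transcriptomes of the mouse thymus. These 9 genes were chosen by name, out of 54838 genes listed with the counts, and each had UMIs in every section. The study set thymus lacking p53 beside WT thymus to ask how the tissue is organised before lymphoma develops. Transcripts of 10 µm cryosections were caught through their poly(A) tails on barcoded spots 4.8 µm apart and counted once each through unique molecular identifiers (UMIs). The sections came from 3 female C57BL/6 mice perfused with PBS. Section KO1134 was *Trp53*-/- at 17 weeks, section KO1308 was *Trp53*-/- at 21 weeks and section WT1101 was *Trp53*+/+ at 17 weeks. Each genotype contrast therefore rests on 2 KO animals and 1 WT animal, the KO animals differ in age, and permeabilisation was set to another time for KO than for WT tissue. The KO animals lacked p53 in every tissue and their thymi were described as pre-neoplastic.

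MHC class I molecules display peptides from inside the cell on its surface. A polymorphic heavy chain binds the peptide and pairs with beta-2-microglobulin, the product of *B2m*, without which few class I molecules reach the surface. H-2K and H-2D are the classical chains, present on nearly all nucleated cells and recognised by CD8 T cells. The non-classical chains vary less between individuals and many have narrower roles: Qa-1, encoded by *H2-T23*, displays leader peptides of other class I chains to NK cell receptors, the *H2-M3* product binds N-formylated peptides, the *H2-T22* product is a ligand of some gamma delta T cells, and *H2-Q7* encodes a Qa-2 chain. In the thymus, class I on cortical epithelial cells selects CD8 T cells, immature cortical thymocytes carry little of it on their surface, and the amount increases as thymocytes mature and move to the medulla.

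All 9 genes matched an entry of the RefSeq promoter table (GRCm38.p6), and the promoters are shown because the genes were read out together and share elements there. On GRCm38, *B2m* (ENSMUSG00000060802) lies on chromosome 2 from 122147686 to 122153083, and the 8 heavy chain genes lie on chromosome 17. *H2-K1* (ENSMUSG00000061232) spans 33996017 to 34000347 on the minus strand. *H2-D1* (ENSMUSG00000073411) spans 35262730 to 35267499, and *H2-Q4* (35379617 to 35385290), *H2-Q6* (35424850 to 35430055) and *H2-Q7* (35439155 to 35443773) follow it on the plus strand. *H2-T23* (36029773 to 36032855) and *H2-T22* (36037128 to 36042747) lie on the minus strand, and *H2-M3* (37270220 to 37274484) on the plus strand. Stretches of 120 bases upstream of the RefSeq start are given 5′ to 3′ on the strand of the gene for chr2:122147538-122147657 (*B2m*, plus), chr17:34000349-34000468 (*H2-K1*, minus), chr17:35439012-35439131 (*H2-Q7*, plus), chr17:36042823-36042942 (*H2-T22*, minus) and chr17:37270100-37270219 (*H2-M3*, plus). Capitals mark matches, on either strand, to the interferon-type letters GAANNGAAA or GAAANNGAA and to the NF-kappaB-type letters GGGGATTCC.
B2m: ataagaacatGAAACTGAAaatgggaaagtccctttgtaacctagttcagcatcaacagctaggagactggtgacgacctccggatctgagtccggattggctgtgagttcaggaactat
H2-K1: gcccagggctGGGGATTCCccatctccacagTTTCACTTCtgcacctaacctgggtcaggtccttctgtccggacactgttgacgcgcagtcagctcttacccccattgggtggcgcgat
H2-Q7: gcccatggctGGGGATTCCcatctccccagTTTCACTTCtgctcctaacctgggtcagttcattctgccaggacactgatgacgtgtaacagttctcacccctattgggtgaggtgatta
H2-T22: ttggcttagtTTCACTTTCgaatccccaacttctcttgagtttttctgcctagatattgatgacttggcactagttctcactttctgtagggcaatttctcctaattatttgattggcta
H2-M3: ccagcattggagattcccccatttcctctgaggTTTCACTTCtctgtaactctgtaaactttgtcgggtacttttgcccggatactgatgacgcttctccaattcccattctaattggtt

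Within the whole window of the table, from 250 bases before the start to 50 after it, GGGGATTCC was found in *H2-K1*, *H2-D1*, *H2-Q6* and *H2-Q7* and in 0.2496% of all 32851 promoters. GAANNGAAA was found in 6 of the 9 genes (*H2-K1*, *H2-D1*, *H2-Q4*, *H2-Q6*, *H2-Q7* and *H2-M3*) and in 7.52% of all promoters. GAAANNGAA was found in *B2m*, *H2-T22* and *H2-T23* and in 8.56% of all promoters, so that no gene of the 9 held both. TGACGC, which occurs in cyclic AMP type elements, was found in 4 of the 9 genes (*H2-K1*, *H2-D1*, *H2-Q4* and *H2-M3*) and in 7.403% of all promoters, and CCAAT in all 9 genes and 37.4% of all promoters. The 120 bases that begin 10 bases before GGGGATTCC were identical between *H2-D1* and *H2-K1* at 108 positions (90%) and between *H2-Q6* and *H2-K1* at 85 positions (70.8%). These matches describe letters in the window and carry no measurement of binding.

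Similarity and overlap between these genes limit how their counts can be read. The rule by which reads of overlapping or near-identical genes were assigned is not given in the sources used here. *B2m* lies within the span of *Patl2*, on the opposite strand, and no exons of the 2 genes overlap. The counts of the 2 genes were nevertheless almost equal, with 58437 *B2m* and 59107 *Patl2* UMIs in KO1134, 46870 and 47275 in KO1308, and 29124 and 29601 in WT1101. How far the same molecules were counted under both names, or divided between them, was not tested beyond these totals and the shared spots. Both genes had UMIs at 29.9% of the spots with *B2m* in KO1134, 16.6% in KO1308 and 13.3% in WT1101. In the last 500 transcribed bases, where 3′ reads fall, stretches of 50 bases that also occur in another gene made up 59.2% of those of *H2-T22*, all shared with *H2-T10*, 38.1% for *H2-T23*, 35.9% for *H2-Q6* and 33.7% for *H2-Q4*. The shares were lower for *H2-D1* (9.53%), *H2-Q7* (6.21%), *H2-K1* (0.444%), *B2m* (0%) and *H2-M3* (0%). By this measure *H2-K1* and *H2-M3* are the heavy chains least open to reads of other genes. It counts any other gene, and the one sharing most was *Efr3a* for *H2-Q6* and *Rab33b* for *H2-T23*. *H2-T22* and *H2-T23* also overlap the antisense gene *A930015D03Rik*, and *H2-Q4* overlaps *Gm11131*. In CD3-positive thymic bins *A930015D03Rik* had 167, 189.5 and 164 CPM in KO1134, KO1308 and WT1101, or 1.02 and 1.16 times WT in the KO sections.

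The counts of neighbouring spots were added up over squares of 27 µm (bins). Bins with 300 genes or more and no more than 30% of mitochondrial UMIs were kept, 12009 in KO1134, 16140 in KO1308 and 27104 in WT1101. Kept bins held a mean of 2591, 1090 and 1497 UMIs in that order, from 31237062, 21089885 and 41581477 deposited UMIs. Each kept bin was placed in a compartment by marker genes in its surroundings that include none of the 9 genes. Bins with more B cell than thymus transcripts formed the B-cell zone (1947 bins in KO1134, 435 in KO1308 and 0 in WT1101). Of the others, bins rich in medullary epithelial genes formed the medulla (1786, 2364 and 5816 bins), CD3-positive bins of the remaining thymus area formed the CD3-positive thymic bins (2037, 5275 and 13864), and bins away from thymus transcripts lay outside the thymus (773, 1279 and 60). The 6 medulla genes had 2083, 1894 and 916 CPM (UMIs per 1e+06 UMIs of the compartment) in the medulla against 346, 467 and 72.7 CPM in CD3-positive thymic bins. The 4 genes of the B-cell zone check that were not used to place bins (*Cr2*, *Cxcl13*, *Fcer2a* and *Cd22*) had 199 and 563 CPM in the B-cell zones against 20.0 and 22.6 CPM in CD3-positive thymic bins. *Trp53* itself had 11.7 CPM in KO1134, 23.3 in KO1308 and 79.6 in WT1101 in CD3-positive thymic bins, so that transcripts remained in both KO sections at 0.148 and 0.292 times WT.

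**Figure D1:**
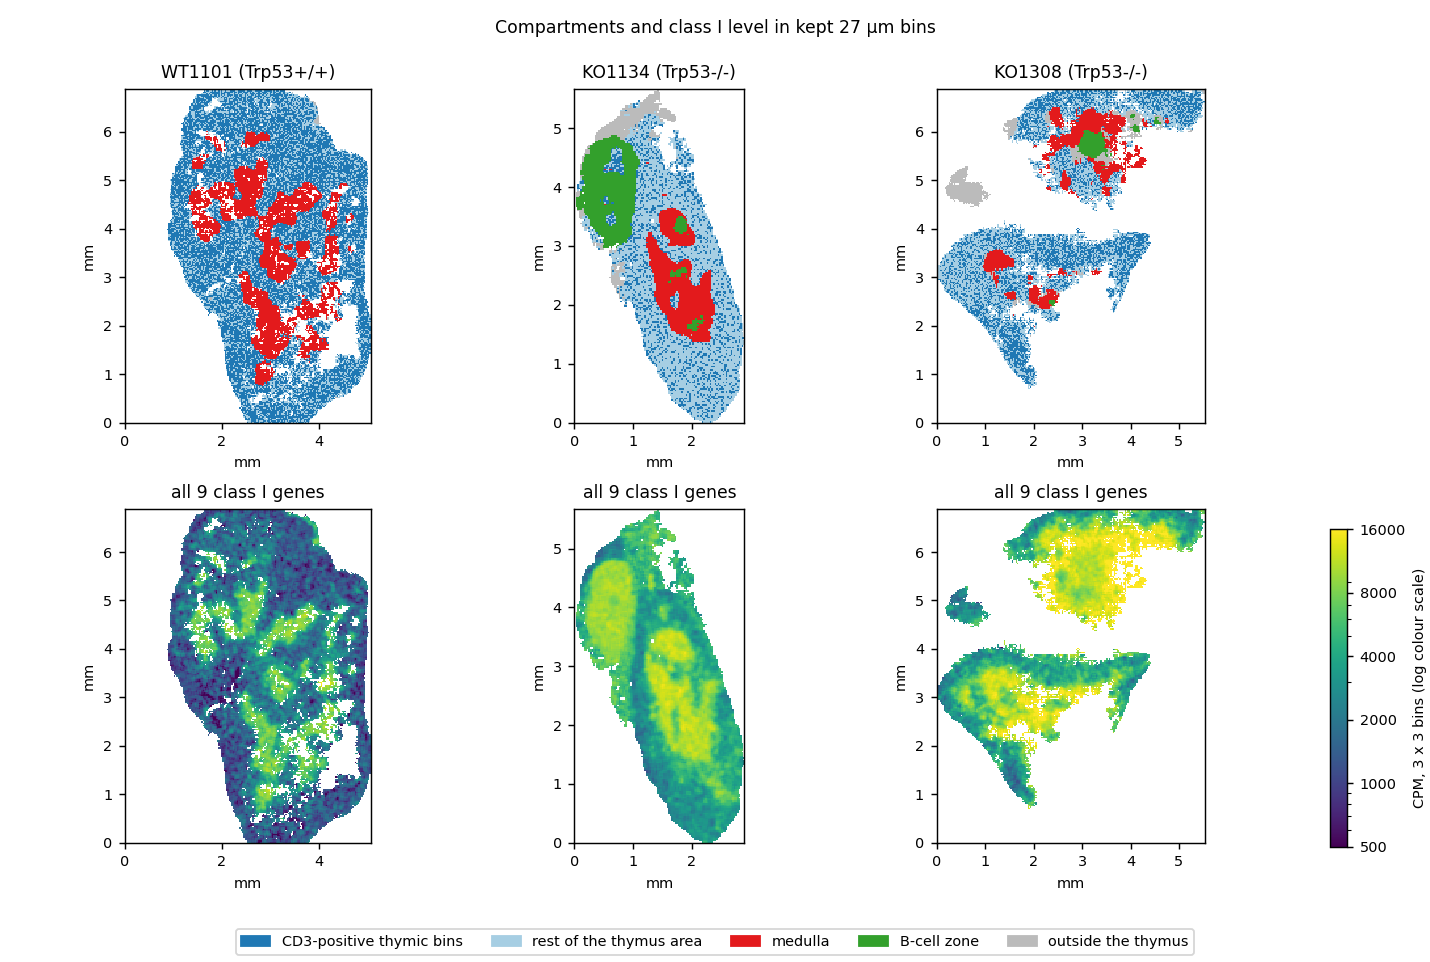
Maps of the 3 sections. The upper row colours each kept bin of 27 µm by compartment and the lower row by the CPM of the 9 class I genes summed over 3 × 3 bins, on a log colour scale, with both axes in mm. The class I level is high in the medulla and in the B-cell zones of KO1134 and KO1308, in KO1308 high levels also extend beyond the bins called medulla, and the thymus of WT1101 between its medullary areas is low.

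The 95% intervals given in parentheses are exact (Poisson for levels, conditional binomial for ratios, binomial for shares), except those on a change relative to another change, which are normal on the log scale. They cover counting error only. No test between genotypes was run, since the 1 WT section gives no spread among WT animals, and spread between animals can be read only from the gap between KO1134 and KO1308. UMIs from 3′ capture count molecules irrespective of transcript length, so levels of different genes are given per molecule. A bin holds more than 1 cell, and fewer cells of a type and less RNA per cell cannot be told apart.

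In CD3-positive thymic bins, each of the 9 genes had its lowest level in WT1101. The 9 genes together had 4768 CPM (4707 to 4829) in KO1134, 5555 CPM (5495 to 5616) in KO1308 and 1612 CPM (1596 to 1629) in WT1101. The ratios to WT1101 were 2.96 and 3.45. At least 2-fold higher levels were seen for 5 of 9 genes in KO1134 and 7 of 9 in KO1308, whereas 9.19% of 12802 and 9.86% of 12809 tested genes were that much higher in the same sections. The median ratio of the 9 genes was 2.84 in KO1134 and 2.68 in KO1308, beside 0.941 and 1.05 over all tested genes.

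*B2m*, the light chain shared by the class I molecules, had 1562 CPM (1527 to 1597) in KO1134, 1476 CPM (1445 to 1508) in KO1308 and 551 CPM (541 to 560) in WT1101. Both KO sections stood well above WT1101 and close to each other. The ratios to WT1101 were 2.84 (2.76 to 2.92) and 2.68 (2.61 to 2.76), with a mean of 2.76 ± 0.11 (SD, n = 2 KO sections). *Patl2*, with almost the same counts, had ratios of 2.79 and 2.63 and is no separate evidence. Summing both genes gave a mean ratio of 2.73. The paper reported lower *B2m* expression in pre-neoplastic thymic T cells from its single-cell RNA profiles. From cell communication analysis of thymus sections it reported weaker presentation by MHC class I and II. Those results concern T cells and inferred signalling, whereas the values here concern all transcripts of a bin, and the 2 were not compared.

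The classical chains carried most of the heavy chain UMIs. *H2-K1* had 1368 CPM (1336 to 1401) in KO1134, 2302 CPM (2264 to 2341) in KO1308 and 444 CPM (435 to 453) in WT1101. *H2-D1* had 919 CPM (893 to 947), 934 CPM (909 to 959) and 299 CPM (292 to 306). *H2-D1* was thus alike in the KO sections, with ratios of 3.07 and 3.12 (mean 3.10 ± 0.034, SD, n = 2), whereas *H2-K1* was 3.08 times WT1101 in KO1134 and 5.19 times in KO1308 (mean 4.13 ± 1.49, SD, n = 2). The *H2-K1* level of KO1134 was 0.594 times (0.577 to 0.612) that of KO1308. The change of *H2-D1* relative to that of *H2-K1* was 0.997 (0.9495 to 1.046) in KO1134 and 0.602 (0.576 to 0.628) in KO1308, so the classical chains departed from WT1101 by the same factor in KO1134 and by unequal factors in KO1308.

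The 3 genes of the Q region differed among themselves. *H2-Q7* had 412 CPM (394 to 430) in KO1134, 361 CPM (346 to 376) in KO1308 and 90.6 CPM (86.8 to 94.6) in WT1101, 4.55 and 3.98 times WT1101. *H2-Q6*, which is closely related to *H2-Q7*, had 193 CPM (181 to 206), 126 CPM (117 to 135) and 42.4 CPM (39.8 to 45.1), 4.55 and 2.96 times WT1101. The KO sections were both above WT1101 for these genes, and for *H2-Q6* they also differed from each other by 1.54-fold (1.40 to 1.70). *H2-Q4* had 111, 144 and 56.3 CPM in the same order, with ratios of 1.98 (1.78 to 2.18) and 2.55 (2.34 to 2.78).

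The genes of the T and M regions had the smallest ratios of the 9. *H2-T22* had 71.9, 94.6 and 42.2 CPM, with ratios of 1.70 (1.503 to 1.92) in KO1134 and 2.24 (2.02 to 2.49) in KO1308. *H2-M3* had 49.2, 45.3 and 27.3 CPM, with ratios of 1.80 (1.55 to 2.09) and 1.66 (1.43 to 1.92). *H2-T23* had 81.6 CPM (73.8 to 89.9), 73.5 CPM (66.8 to 80.8) and 59.4 CPM (56.3 to 62.6), the smallest separation of the sections. Its ratios of 1.37 (1.23 to 1.54) and 1.24 (1.11 to 1.38) were below those of every other member in the same section.

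**Figure D2:**
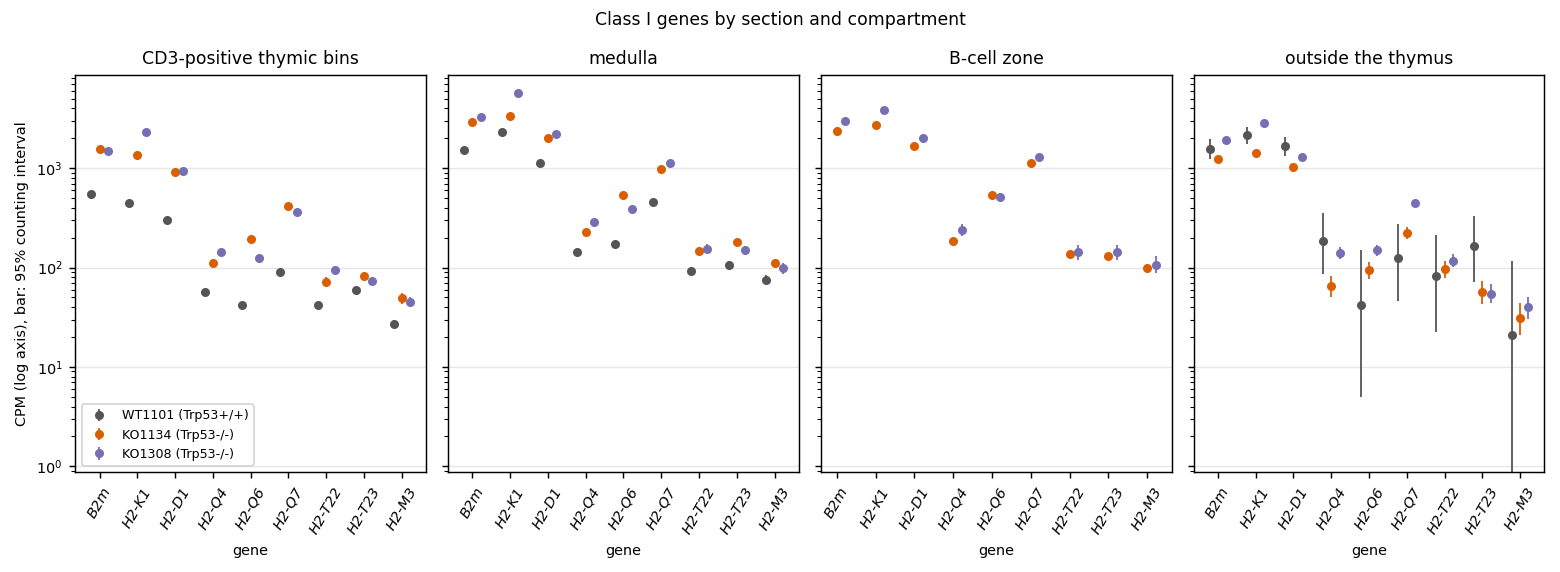
Level of each class I gene in CPM on a log axis, with 1 panel for each compartment. Points are sections and bars are 95% counting intervals, and WT1101 has no point in the B-cell zone. In CD3-positive thymic bins every gene is lowest in WT1101, and *H2-T23* shows the least separation.

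Summed, the classical genes had 2288 CPM (2246 to 2330) in KO1134, 3236 CPM (3190 to 3282) in KO1308 and 743 CPM (732 to 754) in WT1101. The non-classical genes had 919 CPM (892 to 946), 843 CPM (820 to 867) and 318 CPM (311 to 326). The classical ratio to WT1101 was 3.08 (3.01 to 3.15) in KO1134 and 4.35 (4.27 to 4.44) in KO1308, with a mean of 3.72 ± 0.902 (SD, n = 2). The non-classical ratio was 2.89 (2.78 to 2.995) and 2.65 (2.56 to 2.75), with a mean of 2.77 ± 0.168 (SD, n = 2). In CD3-positive thymic bins the KO sections thus agreed on the non-classical sum more closely than on the classical sum, in which *H2-K1* set KO1308 apart. In CD3-positive bins of the whole tissue the reverse was seen. The non-classical ratios were 3.66 and 2.67 there, and the classical ratios 3.07 and 3.69. The non-classical change relative to the classical change was 0.938 (0.898 to 0.980) in KO1134 and 0.609 (0.584 to 0.634) in KO1308. The value of KO1134 is close to 1 and turned to 1.19 when CD3-positive bins of the whole tissue were taken, so a smaller change of the non-classical genes was measured under both choices for KO1308 alone (0.725 in the whole tissue). In those bins of the whole tissue, 8 of 9 genes were at least 2-fold higher in KO1134, beside 8.81% of all tested genes.

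Shares of the heavy chain UMIs do not depend on the other genes of a bin. Classical genes made up 71.4% of them in KO1134, 79.3% in KO1308 and 70.0% in WT1101 in CD3-positive thymic bins. *H2-K1* alone made up 42.7%, 56.4% and 41.8%, *H2-Q7* 12.9%, 8.84% and 8.54%, and *H2-T23* 2.54%, 1.80% and 5.60%. KO1134 and WT1101 therefore had nearly equal classical shares with a different non-classical make-up, more *H2-Q7* and less *H2-T23* in KO1134, whereas KO1308 held more *H2-K1*. *B2m* gave 0.487, 0.362 and 0.519 UMIs per heavy chain UMI in the same order. These values use *B2m* as counted, and depend on how its reads were assigned beside *Patl2*, which is not given.

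The other bins of the thymus area, which were not CD3-positive, gave a similar picture. The CD3 limit is relative to all UMIs of a bin, so a deeper bin needs more CD3 UMIs, and these bins can still hold T cells. They numbered 5466 in KO1134, 6787 in KO1308 and 7364 in WT1101 and had 4404, 6589 and 1743 CPM of the 9 genes. The classical sum was 2.56 and 4.66 times WT1101 there and the non-classical sum 2.28 and 2.85 times. The non-classical change relative to the classical change was 0.892 (0.855 to 0.932) in KO1134 and 0.612 (0.585 to 0.641) in KO1308.

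**Figure D3:**
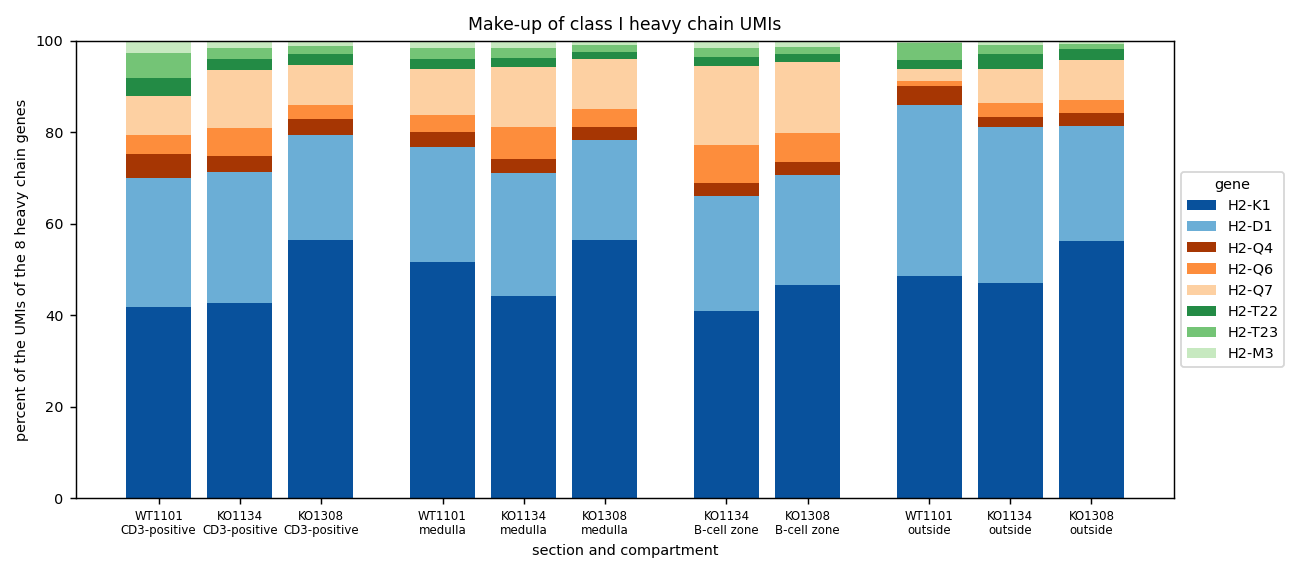
Make-up of the heavy chain UMIs in each section and compartment, as a stacked percentage of the UMIs of the 8 heavy chain genes. *H2-K1* and *H2-D1* form the larger part of each bar, and the *H2-Q6* and *H2-Q7* parts are widest in the B-cell zones of KO1134 and KO1308.

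In the medulla, where mature thymocytes, medullary epithelial cells and dendritic cells lie together, class I was higher than in CD3-positive thymic bins of the same section, and the KO sections lay nearer to WT1101. The 9 genes had 10404 CPM (10311 to 10498) in KO1134, 13446 CPM (13299 to 13595) in KO1308 and 6004 CPM (5940 to 6068) in WT1101. Ratios to WT1101 were 1.73 (1.71 to 1.76) and 2.24 (2.21 to 2.27). At least 2-fold higher were 2 of 9 genes in KO1134 (*H2-Q6* and *H2-Q7*) and 5 of 9 in KO1308 (*B2m*, *H2-K1*, *H2-Q4*, *H2-Q6* and *H2-Q7*), beside 4.61% and 4.8% of all tested genes. The median ratio of the 9 genes was 1.68 and 2.01, beside 0.894 and 0.928 over all tested genes. The medulla limit was set relative to each section's own share of the medulla genes. This share was 672 CPM in KO1134, 732 CPM in KO1308 and 193 CPM in WT1101. Bins of WT1101 were thus called medulla at a lower level of these genes, and the ratios compare areas with unequal levels of them. How far this alters the medulla ratios was not tested.

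*H2-K1* had 3316 CPM (3264 to 3369) in the medulla of KO1134, 5748 CPM (5652 to 5845) in KO1308 and 2324 CPM (2284 to 2364) in WT1101. *H2-D1* had 2026, 2221 and 1126 CPM, and *B2m* 2892, 3276 and 1513 CPM. The ratio of *H2-K1* to WT1101 was 1.43 in KO1134, the lowest of the 9 genes there, and 2.47 in KO1308. *H2-Q7* had 969, 1122 and 451 CPM and *H2-Q6* 537, 388 and 172 CPM, with *H2-Q6* at 3.12 times WT1101 in KO1134 and 2.26 times in KO1308. *H2-Q4* (226, 289 and 144 CPM), *H2-T22* (148, 155 and 92.01 CPM), *H2-T23* (179, 149 and 107 CPM) and *H2-M3* (112, 98.0 and 75.8 CPM) had ratios from 1.29 to 2.01. The sum of the classical genes was 1.55 (1.52 to 1.58) and 2.31 (2.26 to 2.36) times WT1101, and that of the non-classical genes 2.09 (2.02 to 2.15) and 2.11 (2.04 to 2.19) times. The non-classical change relative to the classical change was 1.35 (1.30 to 1.40) in KO1134 and 0.915 (0.877 to 0.954) in KO1308, so the KO sections lay on either side of 1 in the medulla.

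**Figure D4:**
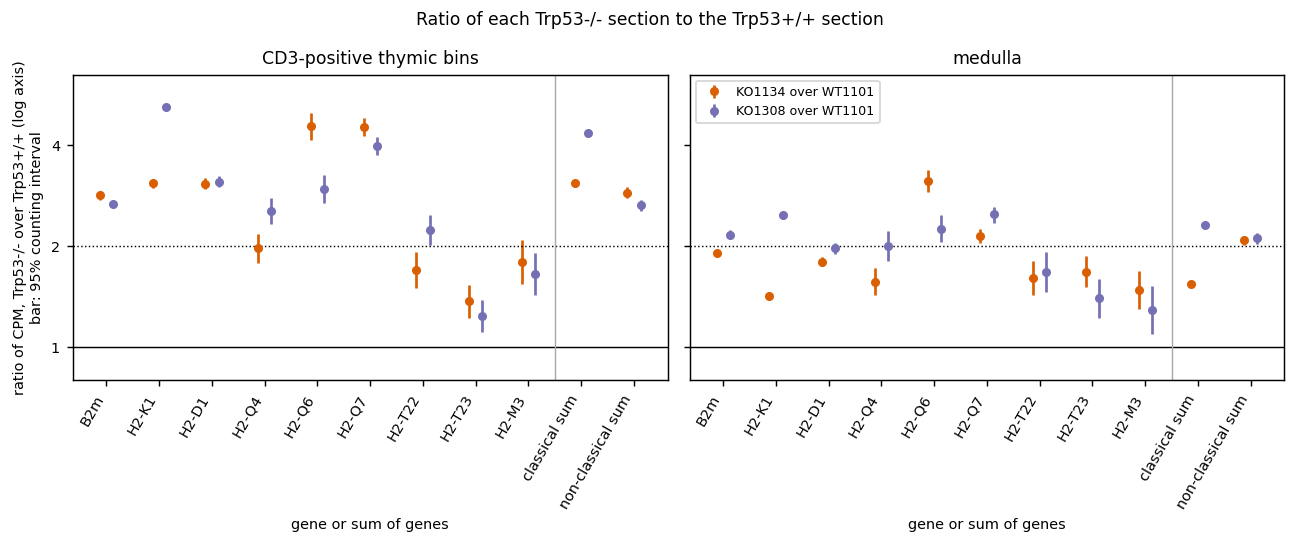
Ratio of each KO section to WT1101 for the 9 genes and for the classical and non-classical sums, in CD3-positive thymic bins and in the medulla. Points are sections, bars are 95% counting intervals the solid line at 1 marks the WT1101 level and the dotted line at 2 the 2-fold limit, on a log axis. All points lie above 1, and *H2-K1* shows the widest gap between KO1134 and KO1308 in both compartments.

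Within a section, the medulla was compared with the CD3-positive thymic bins. The sum of the 9 genes was 2.18-fold higher in the medulla in KO1134 (2.15 to 2.22), 2.42-fold in KO1308 (2.38 to 2.46) and 3.72-fold in WT1101. At least 2-fold higher were 8 of 9 genes in each section, all but *B2m* in KO1134, all but *H2-T22* in KO1308 and all but *H2-T23* in WT1101. Over all tested genes the shares were 7.41% in KO1134, 4.47% in KO1308 and 8.15% in WT1101. The medians of the 9 genes were 2.20, 2.22 and 2.77, beside 0.959, 0.934 and 0.998 over all tested genes. A medulla limit common to all sections was also tried. The sum of the 9 genes was then 2.25-fold higher in the medulla in KO1134, 2.64-fold in KO1308 and 4.33-fold in WT1101. The steps of the classical and non-classical sums were not tested with this limit.

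The step was steepest for *H2-K1* in WT1101, at 5.23-fold, against 2.42-fold in KO1134 and 2.497-fold in KO1308. *H2-T23* stepped the least in WT1101, at 1.79-fold, and was 2.20-fold in KO1134 and 2.03-fold in KO1308. The classical sum was 2.34-fold, 2.46-fold and 4.64-fold higher in the medulla of KO1134, KO1308 and WT1101, and the non-classical sum 2.36-fold, 2.61-fold and 3.27-fold. The non-classical step relative to the classical step was 1.01 (0.971 to 1.06), 1.06 (1.02 to 1.11) and 0.705 (0.678 to 0.734). In WT1101 the classical sum thus had the larger step, and in the KO sections both sums had nearly the same. The 2 kinds overlapped gene by gene in WT1101, where *H2-Q7* (4.98-fold) and *H2-Q6* (4.06-fold) stepped more than *H2-D1* (3.76-fold).

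The B-cell zone, where B cell transcripts outnumber thymus transcripts, existed in the KO sections only, and so has no WT level beside it. The 9 genes had 8901 CPM (8826 to 8977) in KO1134 and 11332 CPM (11121 to 11547) in KO1308. Against CD3-positive thymic bins, 3 of 9 genes were at least 2-fold higher in KO1134 (*H2-Q6*, *H2-Q7* and *H2-M3*) and 5 of 9 in KO1308 (*B2m*, *H2-D1*, *H2-Q6*, *H2-Q7* and *H2-M3*), beside 5.61% and 3.78% of all tested genes. The medians of the 9 genes were 1.90 and 2.04, beside 0.904 and 0.849 over all tested genes.

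The sum of the non-classical genes departed further than that of the classical ones in this zone, with the largest steps in *H2-Q6* and *H2-Q7*. *H2-Q7* had 1124 CPM (1097 to 1151) in KO1134 and 1294 CPM (1223 to 1368) in KO1308, which was 2.73 and 3.59 times the CD3-positive thymic bins. *H2-Q6* had 542 CPM (524 to 561) and 518 CPM (473 to 565), 2.81 and 4.13 times those bins. *H2-K1*, at 2684 and 3883 CPM, was 1.96 and 1.69 times those bins, and *H2-D1*, at 1657 and 1996 CPM, 1.80 and 2.14 times. The other non-classical genes were not all above the classical ones, with *H2-Q4* at 1.68 and 1.67 times, *H2-T22* at 1.90 and 1.51 times, *H2-T23* at 1.59 and 1.94 times and *H2-M3* at 2.03 and 2.36 times the CD3-positive thymic bins. The non-classical sum was 2.42 (2.34 to 2.499) and 2.90 (2.76 to 3.04) times the CD3-positive thymic bins and the classical sum 1.90 (1.86 to 1.94) and 1.82 (1.76 to 1.87) times. The non-classical step relative to the classical step was 1.27 (1.22 to 1.33) in KO1134 and 1.60 (1.51 to 1.69) in KO1308. Classical genes accordingly made up 66.2% and 70.7% of the heavy chain UMIs there, the lowest share among the compartments of each section, and *H2-Q7* made up 17.1% and 15.6%. *H2-M3* had 99.9 and 107 CPM, *H2-Q4* 187 and 239 CPM, *H2-T22* 137 and 142 CPM, and *H2-T23* 130 and 142 CPM.

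Outside the thymus the balance was the opposite. The classical sum had 2423 CPM (2329 to 2520) in KO1134, 4152 CPM (4052 to 4255) in KO1308 and 3819 CPM (3287 to 4413) in WT1101, and the non-classical sum 565, 947 and 623 CPM (420 to 889 in WT1101). WT1101 contributed 60 bins with 48178 UMIs, of which 214 were heavy chain UMIs, and its single genes had between 1 (*H2-M3*) and 104 UMIs (*H2-K1*). Classical genes made up 81.1%, 81.4% and 86.0% of the heavy chain UMIs, the highest share of the compartments in each section. The non-classical level relative to the classical level, set against CD3-positive thymic bins, was 0.581 (0.527 to 0.639) in KO1134, 0.875 (0.820 to 0.934) in KO1308 and 0.381 (0.259 to 0.561) in WT1101. *H2-Q7* had 222 CPM in KO1134 and 446 CPM in KO1308, and the interval of WT1101 (45.7 to 271) held the first of these values. *B2m* had 1229, 1913 and 1557 CPM. No difference between genotypes in the balance of the 2 kinds was detectable at this depth, with non-classical changes relative to classical ones of 1.43 (0.962 to 2.13) and 1.40 (0.947 to 2.07).

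Set in order over these 4 compartments, the level of the 9 genes in WT1101 was lowest in CD3-positive thymic bins (1612 CPM), and its medulla (6004 CPM) and the bins outside the thymus (5999 CPM, 5327 to 6732) did not differ beyond counting error. In KO1134 the order was outside the thymus (4217 CPM), CD3-positive thymic bins (4768), B-cell zone (8901) and medulla (10404). In KO1308 it was CD3-positive thymic bins (5555 CPM), outside the thymus (7012), B-cell zone (11332) and medulla (13446). The KO sections shared the order of the upper 2 compartments.

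Class I in CD3-positive thymic bins also varied with the distance to the nearest medulla bin. The classical sum in bins under 50 µm away, 50 to 100, 100 to 200 and at least 200 µm away was 3988, 3085, 2437 and 1924 CPM in KO1134. It was 7131, 6204, 4752 and 2361 CPM in KO1308 and 1393, 1079, 819 and 622 CPM in WT1101. The level decreased with distance in each section, and the farthest KO bins remained above the nearest WT1101 bins. The non-classical sum went from 1489 to 732 CPM in KO1134, from 1835 to 641 CPM in KO1308 and from 526 to 274 CPM in WT1101. *B2m* went from 2193 to 1392 CPM, from 3026 to 1126 CPM and from 815 to 498 CPM. The 6 medulla genes themselves went from 1070 to 210 CPM, from 1195 to 316 CPM and from 267 to 45.3 CPM over the same distances, so transcripts of medullary cells were present in these bins in unequal amounts.

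**Figure D5:**
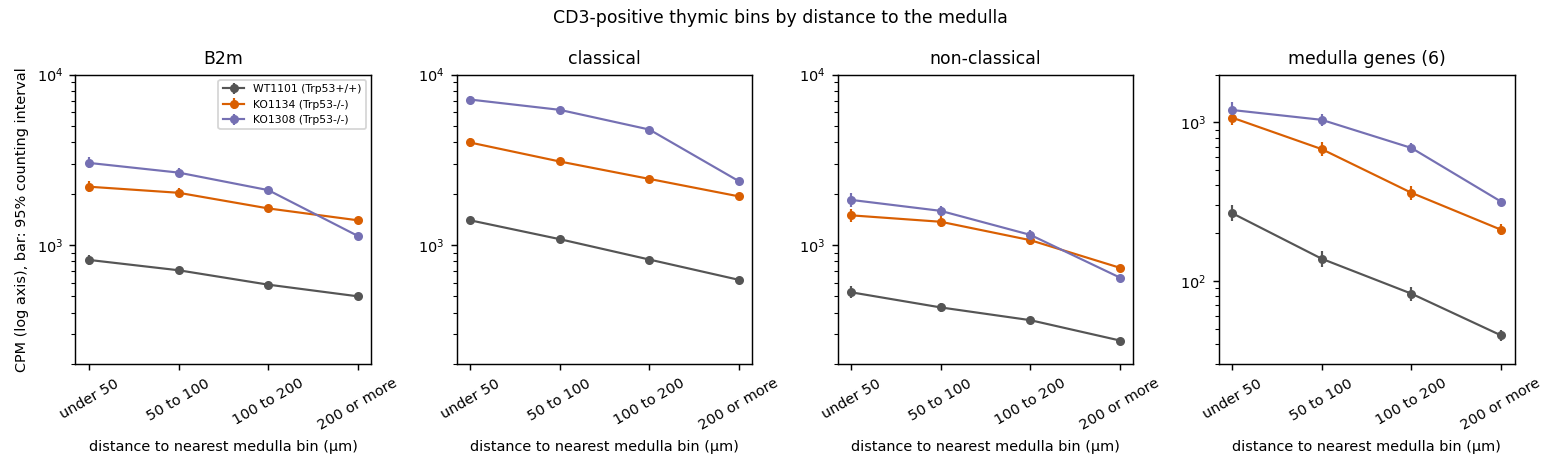
Level in CD3-positive thymic bins by distance to the nearest medulla bin (µm), in CPM on a log axis. Panels show the classical sum, the non-classical sum, *B2m* and the 6 medulla genes, with points for sections and bars for 95% counting intervals. All lines fall with distance, and the KO lines stay above the WT1101 line at every distance.

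In the bins at least 200 µm away, the classical sum was 3.09 (2.99 to 3.20) and 3.80 (3.69 to 3.90) times WT1101 and the non-classical sum 2.67 (2.54 to 2.82) and 2.34 (2.23 to 2.46) times. *B2m* was 2.80 (2.69 to 2.90) and 2.26 (2.18 to 2.34) times WT1101. For *H2-T23* the ratios were 1.14 (0.966 to 1.33) and 1.08 (0.935 to 1.24), and a difference from WT1101 was no longer detectable. In bins without a UMI of the medulla, B cell, class II or myeloid genes, which left 11 bins in KO1134, 320 in KO1308 and 1813 in WT1101, the classical sum was 3.96 (2.64 to 5.72) and 4.49 (4.08 to 4.95) times WT1101. The non-classical sum was 2.29 (0.984 to 4.54) and 1.87 (1.54 to 2.27) times and *B2m* 3.07 (1.71 to 5.10) and 2.94 (2.56 to 3.36) times. *H2-T23* in KO1308 was at 0.392 times (0.125 to 0.943) from 5 UMIs in these bins. Both sets of bins were defined after the values were seen. Maturation markers still differed between the sections in both sets. At 200 µm or more, the 4 mature T genes named below had 520, 156 and 92.1 CPM in KO1134, KO1308 and WT1101. The 4 immature T genes had 629, 1473 and 2090 CPM there. In the other set the mature T genes had 261, 187 and 114 CPM and the immature T genes 521, 1568 and 2308 CPM. The part of these differences in the ratios was not tested.

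Each section was cut into 4 parts to see how evenly the level was spread over the tissue. The classical sum in CD3-positive thymic bins ranged from 1539 to 3170 CPM among the parts of KO1134, from 2797 to 4195 CPM in KO1308 and from 636 to 832 CPM in WT1101. The non-classical sum ranged from 527 to 1506 CPM, from 743 to 1057 CPM and from 292 to 353 CPM, and *B2m* from 1273 to 1846, from 1291 to 1943 and from 522 to 585 CPM. No part of a KO section overlapped a part of WT1101 in these 3 measures. For *H2-T23* the parts ranged from 69.4 to 93.9 CPM, from 66.1 to 81.0 CPM and from 54.8 to 63.9 CPM. The parts share 1 library and are not replicates.

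Bins with a class I UMI were also counted after each bin had been thinned to 500 UMIs. Classical UMIs were then found in 65.7% of CD3-positive thymic bins of KO1134, 73.2% of KO1308 and 31.02% of WT1101 (95.1%, 90.9% and 63.2% without thinning). Non-classical UMIs were found in 31.8%, 32.6% and 14.7% and *B2m* UMIs in 52.5%, 49.7% and 23.2% of thinned bins. At equal depth a higher mean level gives a higher share of bins with a UMI, so these shares follow the levels. The variance of the classical UMIs per thinned bin over their mean was 1.30 in KO1134, 1.74 in KO1308 and 1.17 in WT1101. The mean itself was highest in KO1308 and lowest in WT1101, and this ratio can increase with the mean. It therefore cannot rank the sections by how evenly the classical UMIs were spread. In the medulla the thinned shares were 92.1%, 98.3% and 77.3% for classical and 64.6%, 62.1% and 38.9% for non-classical genes. Thinning left out 26, 662 and 619 CD3-positive thymic bins and 0, 510 and 1264 medulla bins with fewer UMIs.

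Markers of cell types and of maturation stages also differed between the sections, in either direction. In CD3-positive thymic bins the 4 mature T genes (*Klf2*, *S1pr1*, *Ccr7* and *Il7r*) had 581 CPM in KO1134, 213 in KO1308 and 123 in WT1101, and 4 of 4 were higher in both KO sections. The 4 immature T genes (*Rag1*, *Dntt*, *Rag2* and *Cd1d1*) had 582, 1309 and 2097 CPM, and 4 of 4 were lower in both. The mature T genes were higher in KO1134 than in KO1308. In these bins *B2m* and the non-classical sum were also higher in KO1134, at 1.06 and 1.09 times KO1308, whereas *H2-K1* and the classical sum were higher in KO1308. The order of *B2m* and the non-classical sum did not hold elsewhere. They were 0.861 and 0.801 times KO1308 in the rest of the thymus area, and 0.883 and 0.986 times in the medulla. The 6 myeloid genes had 2036, 1157 and 892 CPM (4 of 6 higher in both KO sections), the 3 B cell genes 77.7, 74.03 and 33.7 CPM (3 of 3), the 3 fibroblast genes 183, 175 and 74.6 CPM (3 of 3), the 3 plasma cell genes 503, 987 and 211 CPM (2 of 3), and the 5 medulla check genes 50.6, 159 and 11.9 CPM (5 of 5). Endothelial genes had 83.4, 128 and 111 CPM, adipocyte genes 39.9, 37.2 and 2.14 CPM, and erythroid genes 22.7, 4.42 and 47.2 CPM. Of the 5 cortex check genes, 0 were higher and 3 were lower in both KO sections. How many of all genes were higher or lower in both KO sections was not counted, so these numbers have no background. No marker list was at 0 in a section, and the part of these cells in the class I levels was not tested.

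The other genes of the pathway were taken from lists by function. Of 12 further class I heavy chain genes, 7 had enough UMIs in CD3-positive thymic bins. At least 2-fold higher than WT1101 was 1 gene in KO1134 (*Fcgrt*, the neonatal Fc receptor) and 1 in KO1308 (*H2-T10*), and 4 were at least 2-fold lower in KO1134 (*H2-T10*, *H2-Q1*, *H2-Q2* and *Mr1*) and 0 in KO1308. Over all tested genes, 9.28% in KO1134 and 3.4% in KO1308 were at least 2-fold lower. The median ratios were 0.411 and 1.29. *H2-Q2* had 38.1, 109 and 151 CPM in KO1134, KO1308 and WT1101, *Mr1*, whose product displays bacterial vitamin B2 metabolites, 4.66, 46.9 and 55.2 CPM, and *Cd1d1*, which displays lipids to NKT cells, 29.4, 45.9 and 57.6 CPM. These 3 genes were highest in WT1101, unlike the 9 genes described above. Over the whole list of 12, 4 genes were higher in both KO sections, among them *Fcgrt* and *H2-Q10*, and 4 were lower in both, some of them from few UMIs. The corresponding shares of all genes were not counted. *H2-T10*, which shares sequence with *H2-T22*, had 7.08, 82.5 and 17.3 CPM and lay above WT1101 in KO1308 alone.

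Of the 13 genes of peptide supply and loading, 2 were at least 2-fold higher in KO1134 (*Calr* and *Psme2*) and 2 in KO1308 (*Tapbp* and *Pdia3*), with 0 at least 2-fold lower in either section and medians of 1.501 and 1.57. Beside the 9.19% and 9.86% of all tested genes that were at least 2-fold higher, these are counts near the background. Both KO sections were above WT1101 for 9 of the 13 and below it for 3 (*Tap2*, *Tapbpl* and *Psmb8*). The share of all genes above WT1101 in both KO sections was not counted, so these numbers have no background. *Tap1*, a subunit of the peptide transporter, had 184, 218 and 116 CPM, and *Tapbp*, the tapasin that links it to the heavy chain, 148, 242 and 81.7 CPM. The immunoproteasome subunit *Psmb8* had 168, 187 and 201 CPM. In the medulla, 0 of the 13 genes were at least 2-fold higher in either KO section, with medians of 1.33 and 1.24. Within sections, *Tapbp* in KO1134 and *Tap1*, *Tapbp* and *Psme2* in WT1101 were at least 2-fold higher in the medulla than in CD3-positive thymic bins, and 0 of the 13 were in KO1308.

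Of the 8 regulators, *Nlrc5*, the transactivator of class I genes, had 55.9 CPM in KO1134, 32.3 CPM in KO1308 and 15.7 CPM in WT1101, 3.56 and 2.05 times WT1101. It was higher in both KO sections, with the larger value in KO1134. Between the KO sections, *B2m* and the non-classical sum differed little in CD3-positive thymic bins, at 1.06 and 1.09 times KO1308 in KO1134. Both were lower in KO1134 in the rest of the thymus area. *H2-K1* and the classical sum were higher in KO1308. *Irf1*, an interferon-induced factor, had 84.8, 141 and 52.0 CPM, or 1.63 and 2.72 times WT1101. At least 2-fold higher were thus 1 of 8 in KO1134 and 2 of 8 in KO1308, with medians of 1.01 and 1.24, beside the same 9.19% and 9.86% of all tested genes. In the medulla the counts were 0 and 1 (*Irf1*). In each of the 3 sections *Nlrc5* was at least 2-fold higher in the medulla than in CD3-positive thymic bins, as was *Irf1* in WT1101. Class II transcripts (*Cd74*, *H2-Aa*, *H2-Ab1* and *H2-Eb1*), which mark antigen-presenting and epithelial cells, summed to 3448, 3229 and 1374 CPM in CD3-positive thymic bins, and 4 of 4 were at least 2-fold higher in KO1134 and 3 of 4 in KO1308.

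Genes whose levels were most like the class I sums were sought among 8693 genes over the 11 points formed by the sections and their compartments, on the log2 scale of CPM plus 1. For the classical sum they were *Tgfbi* (r = 0.976), *Gm43126* (0.95), *Ssh1* (0.948), *Psap* (0.942) and *Patl2* (0.939), and for the non-classical sum *Ifi203* (0.969), *Unc93b1* (0.967), *4930578G10Rik* (0.965), *Csf2rb2* (0.964) and *Plek* (0.964). *Tgfbi*, for example, had 33.4 and 126 CPM in CD3-positive thymic bins and medulla of KO1134, 41.4 and 116 CPM in KO1308 and 7.32 and 58.6 CPM in WT1101. Among the 9 genes, *B2m* had r = 0.964 with the classical and 0.944 with the non-classical sum, and *H2-T23* 0.663 and 0.684. The points share 3 libraries, their depth and their compartment rules, *Patl2* overlaps *B2m*, *4930578G10Rik* overlaps *Ccl21a*, one of the genes that define the medulla, and *Gm43126* overlaps *Ccnd2*, so that the correlations are descriptions only.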

How the data were processed

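Spatial transcriptomes of 2 KO and 1 WT thymus sections were used, grouped by their labels. The study's other assays were not analysed here. UMI counts for each gene and spot, not normalised, were deposited, made by the authors using BSTMatrix and STAR, and the submitters' processing notes name GRCm38. The sample list of the study gives figures under KO1308 that are nearer to the section labelled KO1134, so sections are named by their GEO labels.

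Spots were summed in 27 µm bins, kept at 300 genes or more and 30% mitochondrial UMIs or less, in connected groups of at least 200 bins. Folds were not removed. A bin was CD3-positive when any of *Cd3d*, *Cd3e* and *Cd3g* exceeded 2 as ln(1 + UMIs scaled to 10000). Compartments used sums over 7 × 7 bins. The thymus area held 6 thymus genes at 50% or more of their share in the section, the medulla 6 medulla genes at 2 times their share or more and at least 5 UMIs, and the B-cell zone more UMIs of 3 B cell genes than of thymus genes and at least 10 UMIs. Genes were tested at 100 UMIs or more in either side of a comparison, and called at 2-fold. Distances were cut at 50, 100 and 200 µm. Intervals are at 95%.

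The 9 genes and all lists were chosen with earlier results of these data known. Named genes are the 9 members, the 5 most similar to each class I sum and members of the lists, of which 2 are not reported here and were left out of their lists. GENCODE M21 matched 99.8% of 54838 identifiers, and promoters come from RefSeq (GRCm38.p6). Python 3.11.15, numpy 2.4.6, scipy 1.17.1, pandas 2.3.3 and matplotlib 3.10.9 were used, and the ratio intervals were tested on simulated data. Alternatives covered bin width, gene limit, CD3 rule, area, denominator, depth, medulla limit, neighbourhood and single KO sections.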

Additional observations from a re-analysis of the deposited data

Results flagged for a closer look

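Bins that failed the limit of 300 genes and lay at least 100 µm from any kept bin were outside every comparison. In KO1308 the 9 genes had 15097 CPM (14826 to 15372) there, above the 3084 CPM (2573 to 3667) of the corresponding bins of WT1101 and above the 13446 CPM of the KO1308 medulla. The KO1308 value comes from 5869 bins with a mean of 133 UMIs, and comprised 9383 CPM of classical genes, 4584 CPM of *B2m* and 1130 CPM of non-classical genes. WT1101 had 382 such bins and KO1134 had 89, with 834 UMIs in all, of which 6 were of the 9 genes. Whether these bins lie over tissue of low depth or beside it was not tested. Whether the same transcripts also add to the class I levels of the kept bins of KO1308 was not tested either.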

How the results depend on the processing

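Under all alternatives tried, the *B2m*, classical and non-classical mean ratios to WT1101 in CD3-positive thymic bins stayed above 1 and the mean non-classical change relative to the classical change stayed below 1. Without one of the KO sections the ranges were 2.68 to 2.84 for *B2m*, 3.08 to 4.35 for the classical and 2.65 to 2.89 for the non-classical ratio, and 0.609 to 0.938 for the relative change. Values that moved by more than the SD of the KO sections were as follows, and the cause was not tested. The *B2m* ratio was 2.51 with bins of 20 µm, 3.16 with bins of 50 µm, 2.64 with a limit of 500 genes, 2.52 with all 3 CD3 genes past the limit, 2.52 with at least 2 CD3 UMIs, 2.90 without mitochondrial, ribosomal protein and immunoglobulin genes and 2.60 in bins of 800 to 2000 UMIs. It was 2.58 with a medulla limit of 1.5 times the share and 2.31 with a limit common to all sections. The common limit gave 2.78 for the classical ratio. The non-classical ratio was 2.46 with all 3 CD3 genes, 3.17 in CD3-positive bins of all tissue, 2.53 in bins of 800 to 2000 UMIs, 2.43 with 1.5 times the share and 2.17 with the common limit. Among alternatives chosen after seeing the data, bins at least 200 µm from the medulla gave 2.53 for *B2m* and 2.51 for non-classical genes, and bins without UMIs of the medulla, B cell, class II or myeloid genes gave 3.004 for *B2m*, 2.08 for non-classical genes and, for the relative change, 0.497, with 11 bins left in KO1134. Genes at least 2-fold higher in KO1134 numbered 8 instead of 5 in CD3-positive bins of all tissue, and with all 3 CD3 genes past the limit they numbered 7 in KO1134 and 5 instead of 7 in KO1308. For the 9 genes summed, the medulla over CD3-positive thymic bins was 2.32, 2.25 and 2.29 in KO1134, 2.60 and 2.64 in KO1308, and 3.49, 4.33 and 3.58 in WT1101 under other medulla limits or 11 × 11 bins, and the B-cell zone 2.12 and 2.02 in KO1134 and 2.30, 2.34 and 1.95 in KO1308. No paired analysis was possible because WT has 1 section, so that the groups share fewer than 2 replicate numbers. Depth limits the bins outside the thymus of WT1101 most.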
